A study of Mus musculus with 6 samples.

Results

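The collagen chains are the products of the mouse genes whose symbols consist of Col, a type number, a and a chain number. Of the 24419 gene rows measured, 44 matched, and these were taken by class: 11 fibrillar chains, 8 chains of basement membranes, 4 transmembrane chains and 21 others. RNA was sequenced in 6 libraries of neuron-enriched cells sorted from the peri-infarct cerebral cortex of male mice. The middle cerebral artery had been closed for 60 minutes, and brains were taken on day 4. In the 3 libraries labelled cKO the mice were Padi4flox/flox, with both alleles of Padi4 loxP-flanked, and had Cre drivers at Slc17a7 and Slc32a1, which encode vesicular transporters for glutamate and GABA. The 3 libraries labelled control came from Padi4flox/flox mice without Cre, so all 6 libraries carry the floxed alleles and all mice had a stroke. The drivers act in glutamatergic and GABAergic neurons, so other cell types of these mice keep Padi4. No age is stated, and the labels do not say whether each library came from 1 animal or from several. Cells were sorted as positive for Thy1, a surface protein of neurons that fibroblasts can also carry, and negative for the astrocyte antigen ACSA2, the endothelial CD31, the leukocyte CD45 and O4 of the oligodendrocyte lineage. No fibroblast or mural cell marker was among the antigens of the sort.

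Collagens are secreted or membrane-bound proteins whose chains wind around each other into a helix. Fibrillar types I, III and V build the fibres of connective tissue and scars, type IV forms the sheet of basement membranes, and FACIT chains attach to the surface of fibrils. In the brain, collagen is sparse outside the meninges and the vessels. Endothelial and mural cells lay down type IV, perivascular and meningeal fibroblasts make types I and III, and fibrotic scars after injury are rich in them. Neurons are known as a source of some membrane and FACIT collagens, such as types XXV and XIX.

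Values are deposited scaled CPM, which are read counts scaled to library depth (CPM) and rescaled once more per library. Replicates 1, 2 and 3 are given in that order within each group, cKO before control, and both names refer to the labels. Depth was 20819131, 10094145 and 24056755 reads in the cKO libraries and 10638387, 13077507 and 18502027 reads in the control libraries, so 3 reads, taken as the detection floor, equalled 0.126 to 0.303 scaled CPM. Intervals and floors cover counting error only. Padi4, the targeted gene, had few reads, all of them in libraries labelled cKO: it had 0, 3 and 12 reads in the cKO libraries and 0 reads in each control library. Its difference of 0.32 on the log2(scaled CPM + 1) scale had p = 0.4 in an exact two-sided permutation test, in which 3 libraries against 3 cannot go below 0.1. Every direction below therefore rests on labels that the targeted gene, with so few reads, can neither bear out nor contradict. The Thy1 values were 75.1, 186 and 375 in the cKO libraries and 107, 164 and 104 in the control libraries. A list of 11 neuronal markers summed to 1414 to 6842 in cKO and 2589 to 3819 in control, below the sum of 10 oligodendrocyte markers, 11280 to 32657 in cKO and 21899 to 27311 in control, although the sort excluded O4. Replicate 1 of cKO and replicate 1 of control were the 2 libraries most alike of all 15 pairs, with a chi-square per degree of freedom of 26.0 between their reads, against 73.3 to 286.2 for the other 14.

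Some sequences show how collagen genes are laid out, which bears on the pairs of chains described below. Col4a1 and Col4a2, whose products assemble with each other into type IV collagen, start head to head on chromosome 8 of the mm10 build. The Col4a1 gene lies on the minus strand at chr8:11198423-11312826 and Col4a2 on the plus strand at chr8:11312805-11449287. The annotated first exons share 22 bases. The plus strand is given 5′ to 3′ for chr8:11312801-11312830, with the shared bases in capitals, from the RefSeq promoter table (GRCm38.p6).
Col4a1 and Col4a2 shared start: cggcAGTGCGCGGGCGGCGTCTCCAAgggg
The other type IV genes are paired in the same way. Col4a4 and Col4a3 lie head to head on chromosome 1 with 71 bases between them, and Col4a6 and Col4a5 lie head to head on chromosome X with 1308 bases between them. Col3a1 and Col5a2 are neighbours on chromosome 1, tail to tail and 24614 bases apart.

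For 35 of the 44 genes the set of RefSeq promoters used here holds a promoter, 38 promoters in all. The 9 genes without an entry were Col1a1, Col2a1, Col4a3, Col5a2, Col9a3, Col12a1, Col14a1, Col22a1 and Col26a1, and the shares below leave them out. The 250 bases before the start are shown for Col3a1, a chain that spanned a wide range over the libraries, Col5a1, a fibrillar chain that spanned a narrow one, and Col24a1, the chain with the lowest fold change. All are on the plus strand and are given 5′ to 3′, at chr1:45311288-45311537, chr2:27886175-27886424 and chr3:145292222-145292471. Capitals mark TATAAA in the Col3a1 promoter and GGGCGG, on either strand, in the Col5a1 promoter.
Col3a1 promoter: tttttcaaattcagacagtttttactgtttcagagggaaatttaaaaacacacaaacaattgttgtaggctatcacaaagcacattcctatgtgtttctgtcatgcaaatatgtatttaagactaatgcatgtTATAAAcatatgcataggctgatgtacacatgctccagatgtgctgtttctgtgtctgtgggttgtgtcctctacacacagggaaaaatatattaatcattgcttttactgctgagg
Col5a1 promoter: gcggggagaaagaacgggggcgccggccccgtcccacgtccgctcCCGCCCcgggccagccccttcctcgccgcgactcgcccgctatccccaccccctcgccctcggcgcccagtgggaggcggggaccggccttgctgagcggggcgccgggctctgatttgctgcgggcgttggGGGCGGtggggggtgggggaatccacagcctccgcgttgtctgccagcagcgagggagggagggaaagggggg
Col24a1 promoter: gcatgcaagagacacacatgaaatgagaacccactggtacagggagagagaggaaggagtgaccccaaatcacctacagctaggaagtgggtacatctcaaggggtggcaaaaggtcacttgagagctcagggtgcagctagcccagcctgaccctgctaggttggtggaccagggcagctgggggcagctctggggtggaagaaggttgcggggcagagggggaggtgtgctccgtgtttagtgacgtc
The Col3a1 promoter was 35.2% G and C, that of Col5a1 76.4% and that of Col24a1 58.0%. The CCAAT box was searched on both strands. So were the GC box, as GGGCGG, the TATA box, as TATAAA, and the AP-1 site, as TGANTCA. The Col24a1 promoter held none of these. GGGCGG stood in 22 of the 38 collagen promoters, or 57.9%, against 32.7% of all 32817 promoters in the table. The shares were 34.2% and 33.8% for CCAAT, 13.2% and 12.4% for TATAAA, and 2.63% and 6.75% for TGANTCA. These are matches of letters and not measured binding.

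The summed level of the 44 chains spread widely within each group, and the groups overlapped. It was 3717, 932 and 3502 scaled CPM in the cKO libraries, against 5771, 951 and 935 in the control libraries. Replicates 1 and 3 of cKO and replicate 1 of control were high, and the other 3 libraries were low and close to each other. At least 3 reads were found for 40, 29 and 44 chains in the cKO libraries and for 42, 39 and 39 in the control libraries. Type I and type III collagen made up much of this difference. Col1a1, Col1a2 and Col3a1 held 44.7%, 1.10% and 53.0% of all collagen reads in the cKO libraries, against 58.1%, 17.3% and 16.4% in the control libraries. The exact Clopper-Pearson 95% interval of the lowest of these shares ran from 0.902% to 1.34%.

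**Figure D1:**
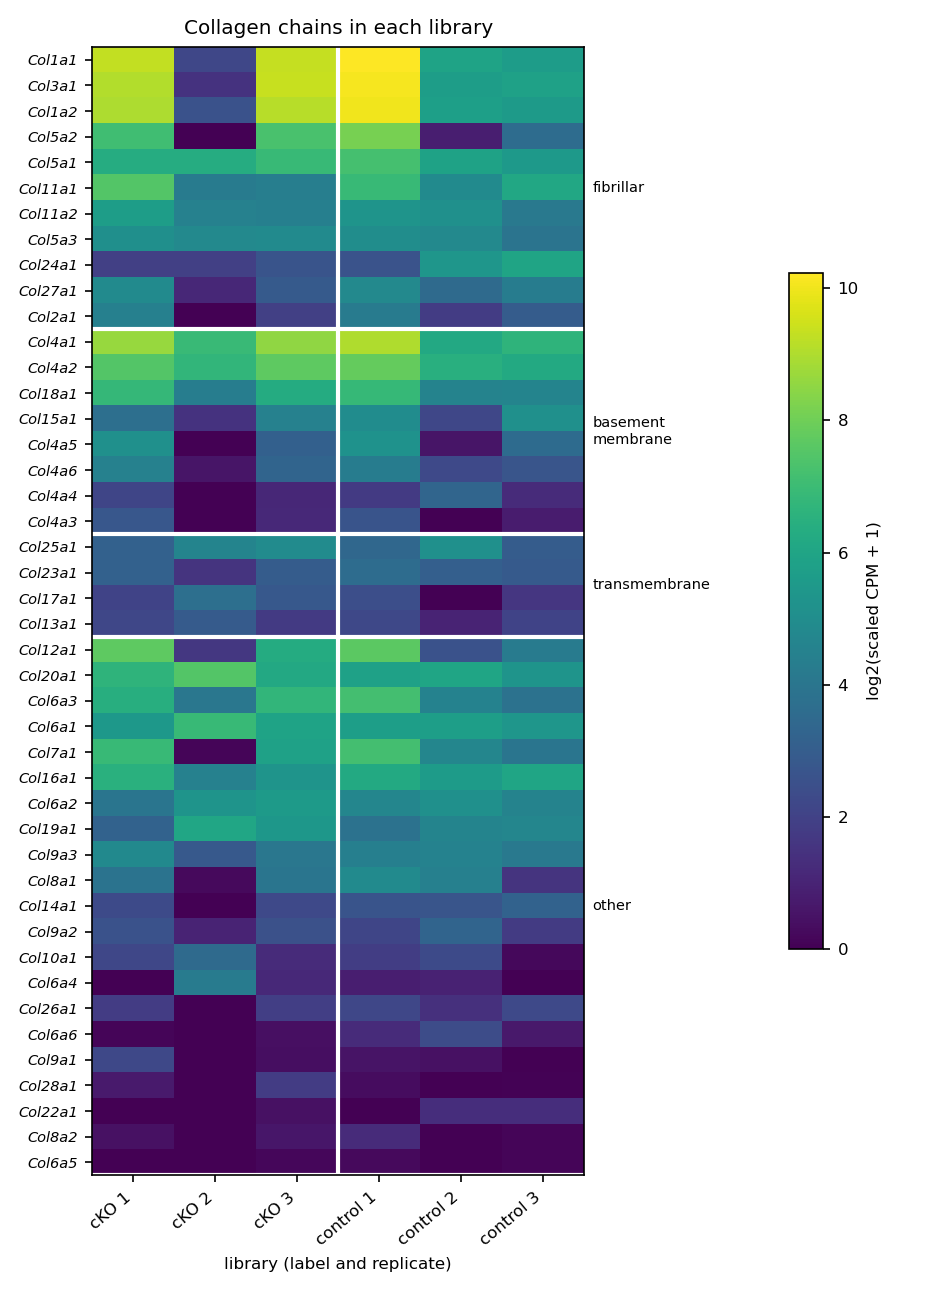
Level of each of the 44 collagen chains in each library, as log2(scaled CPM + 1) by colour, with cKO libraries left of control libraries and chains ordered by mean within each class. Type I and III chains are brightest in cKO 1, cKO 3 and control 1, and cKO 2 has 13 chains with no read.

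The fibrillar sum spanned the widest range of the classes, from 160 scaled CPM in cKO 2 to 4017 in control 1. Col1a1, the major chain of type I collagen (chr11:94936224-94953042, plus strand), had 624, 3.54 and 641 scaled CPM in the cKO libraries against 1205, 60.0 and 48.9 in the control libraries. Col1a2, the minor chain of type I (chr6:4504814-4541544, plus strand), had 506, 4.95 and 559 in cKO against 1047, 54.0 and 46.4 in control. Both chains of type I were highest in control 1 and lowest in cKO 2, and the groups overlapped. Col3a1, whose product forms type III collagen alone and lies in fibrils with type I (chr1:45311538-45349706, plus strand), had 534, 1.82 and 655 in cKO against 1100.0, 50.2 and 57.6 in control. Its order of libraries was like that of type I. The log2 fold changes of cKO over control, with the standard error (SE), were -0.34 ± 1.77 for Col1a1, -0.23 ± 1.65 for Col1a2 and -0.58 ± 1.86 for Col3a1. Each was smaller than its error. Fold changes and SE here and below come from limma, fitted on log2(scaled CPM + 1) over the 14796 genes with at least 1 scaled CPM in at least 3 libraries, and a call needs a p adjusted over these genes (Benjamini-Hochberg) under 0.05. Without cKO replicate 2 they were 2.04, 1.93 and 1.99, and without control replicate 1 they were 1.15, 1.22 and 0.86, so that leaving out either library turned the direction.

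Type V collagen starts fibril formation within type I fibres. All its chains were highest in cKO 1, cKO 3 and control 1, as type I was, but they differed in range. Col5a2 had 134, 0 and 155 scaled CPM in the cKO libraries against 278, 0.809 and 11.3 in the control libraries. It thus followed type I, its partner in fibrils. Col5a1, which assembles with Col5a2, had 80.4, 78.9 and 119 in cKO against 149.6, 58.3 and 44.1 in control. Its highest library exceeded its lowest by much less than that of Col5a2, and the groups overlapped for both. The log2 fold changes were 0.32 ± 0.45 for Col5a1 and 0.59 ± 2.03 for Col5a2, the second having the largest SE of all tested collagens. The sign of Col5a2 turned without cKO replicate 1 (-0.56), cKO replicate 3 (-0.66) or control replicate 2 (-1.08), and that of Col5a1 without control replicate 3 (-0.04). Col5a1 shares 99 and 113 exon bases with 2 genes on the opposite strand, 2810430I11Rik and Gm13372, and no source used here gives the strand setting of the counting. Col5a3, a further type V chain, was the narrowest of the fibrillar chains, with 14.5 to 33.1 over all 6 libraries.

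Col24a1, a fibrillar chain known from developing bone and cornea (chr3:145292472-145552011, plus strand), had the lowest fold change of the collagens. Its values were 2.78, 2.83 and 5.26 scaled CPM in the cKO libraries against 5.07, 40.8 and 62.1 in the control libraries. All cKO libraries and control 1 were low, and control 2 and control 3 were high. The log2 fold change was -2.49 ± 0.84, with an unadjusted limma p of 0.0137 and an adjusted p of 0.9996. It was -3.31 in edgeR (adjusted p = 0.9999) and -3.33 in DESeq2 (adjusted p = 0.196). Col27a1, a fibrillar chain of cartilage, had 28.5, 1.21 and 6.44 in cKO against 27.6, 10.7 and 18.4 in control, with a log2 fold change of -1.25 ± 0.87. The groups overlapped for both chains. The cartilage chains Col2a1, Col11a1 and Col11a2 had log2 fold changes of -0.89, -0.61 and 0.01. Of the 11 fibrillar chains, 4 had a higher and 7 a lower mean on the log2 scale in cKO, where 48% of all tested genes were higher, and their median was -0.34. Leaving out 1 library gave medians from -1.52 (without cKO replicate 1) to 0.56 (without control replicate 1). By the adjusted limma p, 0 of them were called higher and 0 lower, as were 0% and 0% of all tested genes.

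Type IV collagen of basement membranes was present in every library. Col4a1 had 407, 123 and 374 scaled CPM in the cKO libraries against 512, 71.4 and 99.2 in the control libraries. Its head-to-head neighbour Col4a2 had 178, 107 and 204 in cKO against 223, 85.8 and 72.5 in control. Both were higher in cKO 1, cKO 3 and control 1 than in the other 3 libraries, as was type I, but over a narrower range. The log2 fold changes were 0.78 ± 0.70 for Col4a1 and 0.49 ± 0.45 for Col4a2. The remaining type IV chains, known from kidney and other specialised basement membranes, were low, and in cKO 2 Col4a3, Col4a4 and Col4a5 had 0 reads. Col4a4 had 3.41, 0 and 1.18 scaled CPM in cKO against 2.30, 9.12 and 1.39 in control, and a log2 fold change of -1.02 ± 0.82. Col4a3, Col4a5 and Col4a6 had log2 fold changes of 0.16, -0.38 and -0.28.

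Col18a1 and Col15a1 encode the basement membrane collagens that carry endostatin domains. Col18a1 had 113, 19.3 and 77.7 scaled CPM in the cKO libraries against 116, 22.6 and 23.2 in the control libraries. Its log2 fold change was 0.48 ± 0.74, and without cKO replicate 1 it was -0.02. Col15a1 had 12.5, 1.82 and 21.9 in cKO against 30.6, 3.53 and 34.3 in control. Both libraries numbered 2 were its lowest, and control 3 was its highest. Its log2 fold change was -0.85 ± 0.96, and without cKO replicate 2 it was 0.03. Of the 8 basement membrane chains, 4 were higher and 4 lower in cKO, with a median of -0.06, and 0 passed the adjusted threshold.

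Fibroblast and mural markers had an order over the libraries close to that of type I collagen, and the endothelial sum ranked cKO 1, cKO 3 and control 1 highest with Cdh5 counted but not without it. In bulk samples, fewer cells of a type and less RNA per cell cannot be told apart. Of 11 fibroblast and meningeal markers, 10 were summed without Pdgfra, which also marks oligodendrocyte precursors. They summed to 737, 24.0 and 580 scaled CPM in the cKO libraries against 1122, 107 and 199 in the control libraries. Of these 10, 7 were highest in control 1, as Col1a1 was. Among the 10, the numbers at 0 reads were 1, 5 and 0 in the cKO libraries and 0, 3 and 1 in the control libraries, and in cKO 2 the genes at 0 included the fibroblast proteoglycan gene Lum. With Pdgfra, 2 of the 9 tested markers were higher in cKO and 7 were lower. The 12 mural markers, for pericytes and vascular smooth muscle, summed to 1047, 286 and 618 in cKO against 1101, 297 and 495 in control, with none at 0 reads in any library and 6 of 12 higher in cKO. Of these, 8 were highest in control 1 and 4 in cKO 1. The 12 endothelial markers summed to 178, 108 and 139 in cKO against 173, 77.5 and 118 in control. Without Cdh5, a junction cadherin, the sums were 123, 95.8 and 70.0 in cKO against 75.3, 61.0 and 102 in control, and 1 of the 12 was highest in control 1. Cldn5, an endothelial junction gene, had 0 reads in both libraries numbered 2, and 7 of the 12 were higher in cKO. The part of these cells in the collagen values was not tested.

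**Figure D2:**
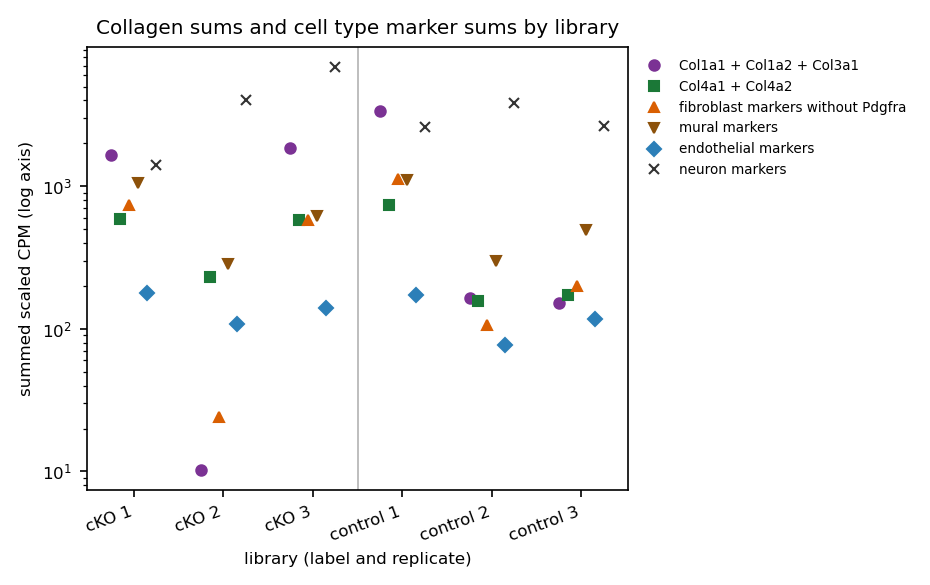
Summed scaled CPM in each library (log axis) of Col1a1, Col1a2 and Col3a1, of Col4a1 and Col4a2, and of marker lists, with cKO libraries left of control libraries. The sum of type I and III chains and that of the fibroblast list without Pdgfra are both lowest in cKO 2 and highest in control 1, where the fibroblast list stands at 24.0 and 1122.

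Transmembrane collagens had the lowest sum of the classes in every library. Their sum was 22.8, 44.2 and 44.8 scaled CPM in the cKO libraries against 29.1, 43.2 and 18.7 in the control libraries, with cKO 2, cKO 3 and control 2 above the other 3 libraries. Among the chains, only Col25a1 had these libraries on top. Col13a1 and Col17a1 were lowest in control 2, and Col23a1 was lowest in cKO 2. Col25a1, a collagen of neurons whose shed part is found in amyloid plaques, had 7.96, 23.2 and 29.6 in cKO against 9.77, 34.6 and 6.83 in control. It was high in cKO 2, cKO 3 and control 2, which were also the 3 libraries with the highest neuronal marker sums of 4039, 6842 and 3819. The part of neuron content in this order was not tested. Its log2 fold change was 0.38 ± 0.70, and without control replicate 3 it was -0.06. Col17a1, a hemidesmosome protein of skin, had 3.21, 12.5 and 6.06 in cKO against 4.52, 0 and 2.11 in control. The groups overlapped by control 1 alone, and the log2 fold change of 1.52 ± 0.81 had an unadjusted limma p of 0.0883 and an adjusted p of 0.9996. Col13a1, a protein of the neuromuscular junction, had 3.55, 6.57 and 2.32 in cKO against 3.59, 1.03 and 3.17 in control, with a log2 fold change of 0.52 ± 0.68. Col23a1 had 8.06, 1.92 and 6.82 in cKO against 11.2, 7.58 and 6.56 in control, with a log2 fold change of -0.65 ± 0.65. Like Col1a1, it was highest in control 1 and lowest in cKO 2. Of the 4 transmembrane chains, 3 were higher and 1 was lower in cKO, with a median of 0.45, and 0 passed the adjusted threshold.

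The FACIT chains, which bind to fibrils, included the tested chains that did not overlap between the groups. Col20a1 (chr2:180986535-181018363, plus strand) had 101, 177 and 71.1 scaled CPM in the cKO libraries against 56.4, 63.8 and 38.2 in the control libraries. Every cKO library was above every control library, as in 2.45% of all tested genes, with means of 117 ± 54.8 in cKO and 52.8 ± 13.2 in control (SD, n = 3 each). The log2 fold change was 1.06 ± 0.40, with an unadjusted limma p of 0.0229 and an adjusted p of 0.9996. Col20a1 shares 79 exon bases with BX649560.1 on the same strand, so reads there cannot be told apart. Col14a1, a FACIT chain that limits fibril growth in tendon, had 3.98, 0 and 3.83 in cKO against 5.35, 5.44 and 8.28 in control. Every cKO library was below every control library, as in 2.26% of all tested genes, and the log2 fold change was -1.33 ± 0.77 with an unadjusted limma p of 0.114. Col12a1, which lies on type I fibrils in tissues under load, had 206, 2.12 and 78.2 in cKO against 203, 4.93 and 18.4 in control. It was low in both libraries numbered 2, and its log2 fold change of 0.38 ± 1.52 turned negative without cKO replicate 1 (-0.86), cKO replicate 3 (-0.17) or control replicate 2 (-0.76). Col19a1, known from interneurons, ranged from 8.20 to 65.4 in cKO and from 13.6 to 24.7 in control. The other FACIT chains tested, Col9a2, Col9a3 and Col16a1, had log2 fold changes of -0.37, -0.43 and -0.51. Of the 7 tested FACIT chains, 3 were higher and 4 lower in cKO, with a median of -0.37.

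Type VI collagen forms beaded filaments around cells from the products of Col6a1, Col6a2 and Col6a3. Col6a1 had 42.7, 119 and 60.8 scaled CPM in the cKO libraries against 51.9, 51.9 and 40.9 in the control libraries. Col6a2 had 15.0, 38.8 and 46.9 in cKO against 25.0, 33.9 and 23.0 in control. Neither followed type I, and Col6a1 was highest in the library in which type I was lowest. Col6a3 had 85.5, 15.9 and 106 in cKO against 145, 22.1 and 13.6 in control, and it was high in the same 3 libraries as type I. The log2 fold changes were 0.49 ± 0.41 for Col6a1, 0.16 ± 0.49 for Col6a2 and 0.55 ± 0.88 for Col6a3. The sign of Col6a2 turned without cKO replicate 2 (-0.01) or cKO replicate 3 (-0.15), and that of Col6a3 without control replicate 3 (-0.11). Col6a4 reached 18.1 in cKO 2 and at most 1.26 in the other 5 libraries, so it was not tested, and it shares exon bases with genes on the opposite strand.

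Col8a1, a short network chain of vessel walls and the cornea, had 13.8, 0.202 and 14.9 scaled CPM in the cKO libraries against 29.0, 21.2 and 1.94 in the control libraries. Its partner chain Col8a2 had at most 0.547 in cKO and 1.38 in control and was not tested. The log2 fold change of Col8a1 was -0.93 ± 1.14, and without cKO replicate 2 it was 0.29. Col7a1, the anchoring fibril chain of skin, ranged from 0.101 to 117 in cKO and from 14.6 to 142 in control, with a log2 fold change of -0.98. Col10a1, a chain of growth plate cartilage, and Col26a1 had log2 fold changes of 0.85 and -0.73. Of the 14 tested chains outside the other 3 classes, 7 were higher and 7 lower in cKO, with a median of -0.10, and 0 passed the adjusted threshold. The 7 chains left out by the filter on low values all came from this class. They were Col6a4, Col6a5, Col6a6, Col8a2, Col9a1, Col22a1 and Col28a1. Among them, Col6a6 had 0.0960, 0 and 0.337 in cKO against 1.38, 4.19 and 0.611 in control, and in the cKO libraries this came to 2, 0 and 8 reads. Its groups did not overlap, but the shares given for tested genes do not cover this untested chain.

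Levels of different chains can be compared only per length, here scaled CPM per kilobase (kb) of the principal transcript. Col1a1, Col1a2 and Col3a1 were the top chains on this scale in cKO 1, cKO 3 and control 1. For Col1a1 the level was 105, 0.596 and 108 per kb in the cKO libraries and 203, 10.1 and 8.25 per kb in the control libraries. In cKO 2 the top chain was Col20a1 at 35.4 per kb, ahead of Col6a1 at 29.1. In control 2 it was Col4a2 at 13.3 per kb, ahead of Col25a1 at 13.2, and in control 3 Col4a1 at 15.0 per kb. The principal transcript of Col25a1 has 2.62 kb and the union of its annotated exons 12.9 kb, so its rank depends on the length chosen. These lengths are 5.348 and 12.426 kb for Col1a2, 5.564 and 9.816 kb for Col3a1, and 6.615 and 7.464 kb for Col4a1. The order of Col1a2, Col3a1 and Col4a1 in cKO 1 and cKO 3 therefore depends on the length as well. The 6 libraries thus did not share a leading collagen.

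Partner chains differed in how constant their ratio was, although their levels changed many times over. The ratio of Col1a1 to Col1a2 per kb was 1.11, 0.644 and 1.03 in the cKO libraries and 1.04, 1.00 and 0.952 in the control libraries. The lowest ratio came from cKO 2, where it rested on 35 and 49 reads. With the union of all annotated exons as the length, its median of 1.02 became 2.14, so that its size depends on the length chosen and its constancy does not. Col3a1 to Col1a1 gave 0.912, 0.548 and 1.09 in cKO and 0.973, 0.893 and 1.25 in control. Col4a1 to Col4a2 gave 2.23, 1.12 and 1.79 in cKO and 2.24, 0.810 and 1.33 in control. This ratio of the shared-start pair was higher in the 3 libraries with more type IV collagen. By contrast, Col6a3 to Col6a1 gave 0.913, 0.0606 and 0.791 in cKO and 1.27, 0.194 and 0.151 in control, the widest range among the pairs with a ratio in all 6 libraries. Col6a1 to Col6a2 ran from 1.25 to 2.96 in cKO and from 1.47 to 2.00 in control. Col5a1 to Col5a2 gave 0.472 and 0.608 in cKO 1 and cKO 3 and 0.424, 56.8 and 3.08 in control, and Col5a2 had no read in cKO 2.

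**Figure D3:**
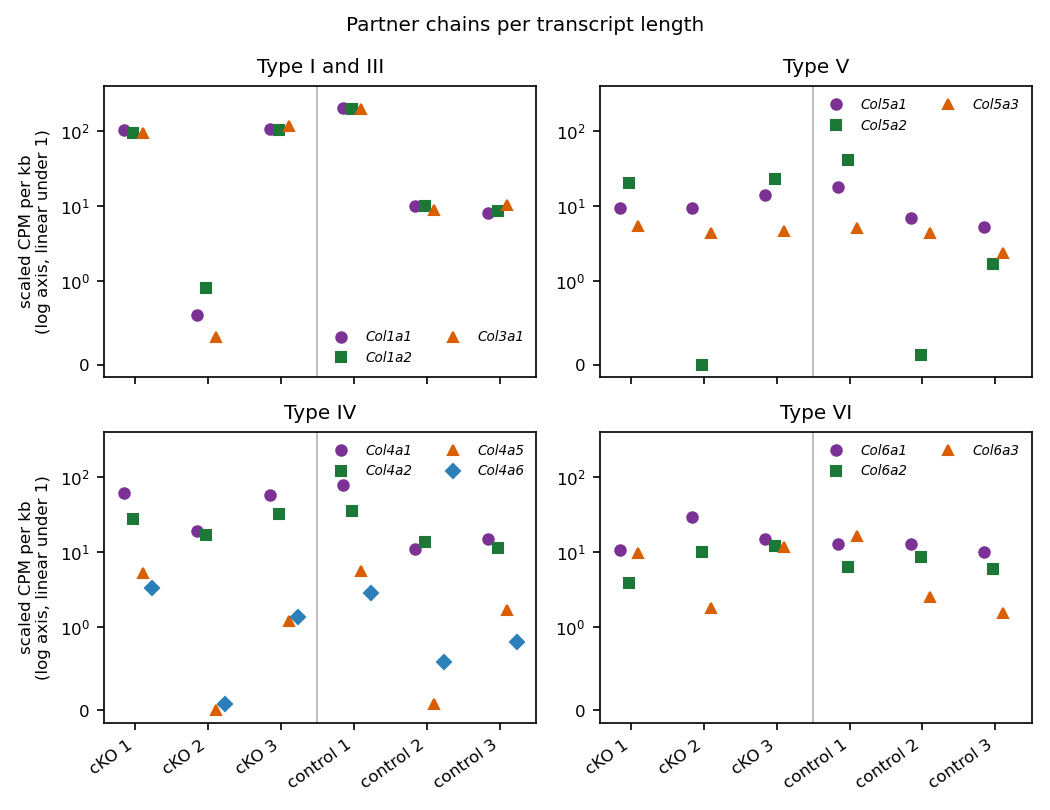
Scaled CPM per kb of principal transcript for partner chains in each library, with cKO libraries left of control libraries (vertical axis linear below 1 and logarithmic above). Col1a1, Col1a2 and Col3a1 lie on each other in most libraries, whereas Col6a3 falls away from Col6a1 in cKO 2, control 2 and control 3.

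Across all chains the comparison of cKO with control gave no call. Of the 44 chains, 37 passed the filter on low values. Among them 18 were higher and 19 lower in cKO, and their median on the log2 scale was -0.23. Over all 14796 genes tested the median was -0.02. At an adjusted limma p under 0.05 the calls numbered 0 collagens higher and 0 lower, and the smallest adjusted p was 0.9996. The count tests edgeR and DESeq2, run on whole reads recovered from the values, called 0 of 37 and 0 of 34 chains. DESeq2 gave no p for Col1a1, Col1a2 and Col5a2. At an unadjusted p under 0.05, edgeR and DESeq2 each had 2 chains. Over all genes edgeR had 73 of 14796 there and DESeq2 175 of 14754. At an unadjusted limma p under 0.05, Col20a1 was the 1 chain on the higher side, where 0.338% of all genes lay, and Col24a1 was the 1 chain on the lower side, where 0.514% lay. This count of 2 became 6 without cKO replicate 1, 5 without control replicate 1, 1 without cKO replicate 2 or control replicate 2, and 0 without control replicate 3. Over all 14796 genes tested the same count moved as well, from 126 to 989 without cKO replicate 1 and 206 without control replicate 1. It was 53 without cKO replicate 2, 69 without control replicate 2 and 41 without control replicate 3. The unadjusted limma p of Col20a1 was 0.0908 without cKO replicate 2 and 0.0962 without control replicate 3. That of Col24a1 was 0.0601 without control replicate 2 and 0.0804 without control replicate 3. The groups did not overlap for 1 of the 37 tested chains above, Col20a1, and 1 below, Col14a1. Over all tested genes the shares were 2.45% above and 2.26% below, so these counts are near the background. The SE of the log2 fold change ran from 0.40 to 2.03 over the tested chains with a median of 0.81, against a median of 0.54 over all tested genes. The median of the chains was -0.86, 0.25 and -0.45 without cKO replicate 1, 2 or 3, and 0.33, -0.41 and -0.33 without control replicate 1, 2 or 3.

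**Figure D4:**
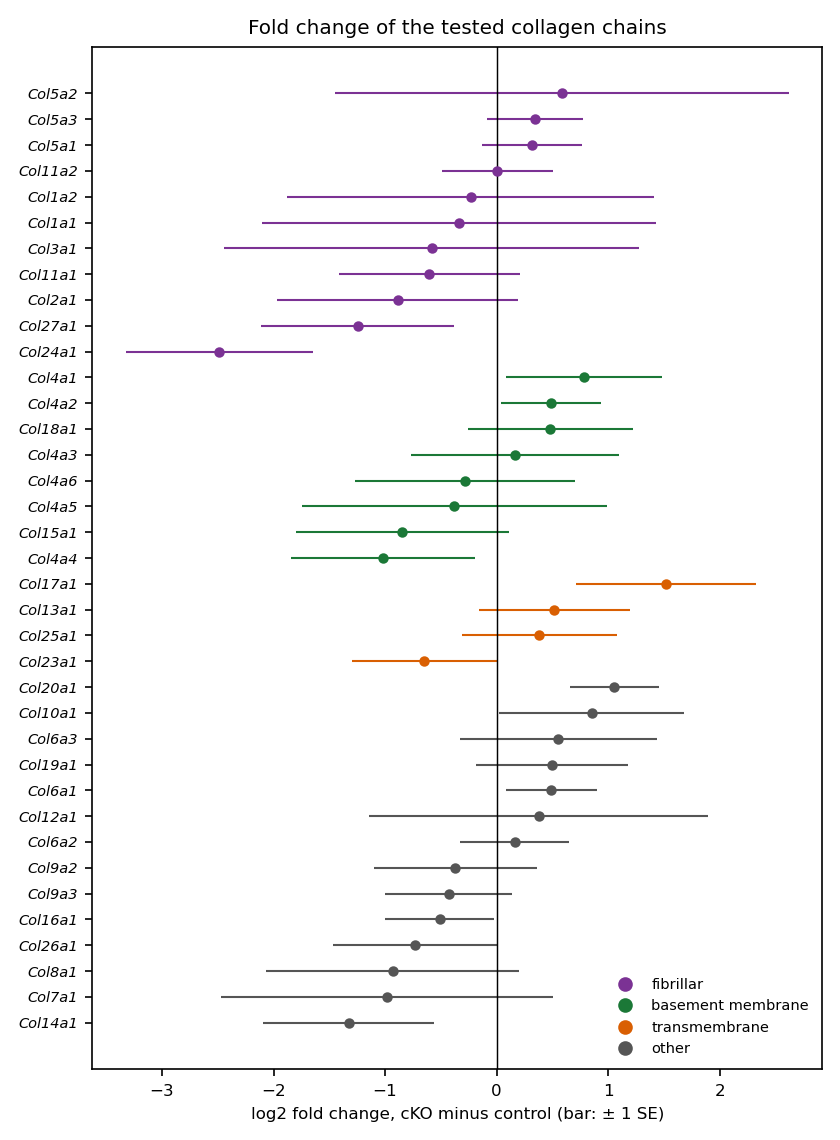
Log2 fold change (cKO minus control) of the 37 tested collagen chains by class, with bars of ± 1 SE from limma (3 libraries per group). The changes run from -2.49 for Col24a1 to 1.52 for Col17a1, and bars are widest for Col5a2, Col3a1 and Col1a1.

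Highest and lowest values were unevenly shared among the libraries. Of the 37 tested chains, 10, 6 and 1 had their highest value in cKO 1, 2 and 3, and 13, 3 and 4 in control 1, 2 and 3. As shares these were 27.0%, 16.2% and 2.70%, and 35.1%, 8.11% and 10.8%. Over all tested genes the shares were 16.4%, 23.8% and 18.2% in cKO, and 11.3%, 17.4% and 12.8% in control. The lowest value stood in cKO 2 for 21 chains, or 56.8%, whereas cKO 2 was lowest for 31.6% of all tested genes. Control 3 was lowest for 9 chains, or 24.3%, against 9.50% of all tested genes. In 14 chains, or 37.8%, cKO 1, cKO 3 and control 1 were the 3 highest libraries, as in 9.39% of all tested genes. These 3 libraries were singled out after their values were seen. The 14 comprised Col1a1, Col1a2, Col3a1, Col5a1, Col5a2 and Col5a3 of the fibrillar class, Col4a1, Col4a2, Col4a3, Col4a6 and Col18a1 of basement membranes, and Col6a3, Col7a1 and Col12a1.

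Genes that process, bind or break down collagen were described next, from a list of 55 of which 52 were tested. The groups of this list by role are hydroxylation and glycosylation, folding and export, propeptide cleavage, crosslinking, receptors and uptake, and breakdown. In all, 23 were higher in cKO and 29 were lower (median -0.08 on the log2 scale), and 0 had an unadjusted limma p under 0.05, against 0.338% of all tested genes on the higher side and 0.514% on the lower. This count was 4 without control replicate 1, and 1 without cKO replicate 1 or control replicate 2. It was 2 with replicate number as a block, and 1 in DESeq2 by its own p. Over all genes the count was 206 without control replicate 1, 989 without cKO replicate 1 and 69 without control replicate 2. With the block it was 307 and in DESeq2 175, against 126 in the main fit. By role, 4 of 14 hydroxylation and glycosylation genes were higher in cKO (median -0.22), as were 3 of 10 for folding and export (-0.17) and 5 of 7 for propeptide cleavage (0.18). For crosslinking it was 2 of 5 (-0.42), for receptors and uptake 6 of 10 (0.46) and for breakdown 3 of 6 (0.08). Tll1, Gp6 and Mmp8 were not tested.

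Among the enzymes that mature the chains, P4ha1, the catalytic subunit of a prolyl 4-hydroxylase, had 65.7, 25.9 and 37.7 scaled CPM in the cKO libraries against 69.8, 43.0 and 68.7 in the control libraries. Its log2 fold change was -0.55 ± 0.42. P3h4, part of a complex for lysyl hydroxylation, had 32.8, 5.56 and 15.6 in cKO against 26.8, 34.0 and 16.5 in control, with a log2 fold change of -0.74 ± 0.62. Both were lowest in cKO 2, and the groups overlapped. Plod3, a lysyl hydroxylase, was the 1 gene of the list with no overlap, with 22.8 to 29.0 in cKO below 29.5 to 36.6 in control, as in 2.26% of all tested genes, and it was chosen after its values were seen. Tmem38b, an ion channel of the endoplasmic reticulum needed for collagen export, had 30.8, 15.7 and 12.2 in cKO against 29.5, 25.8 and 27.4 in control, with a log2 fold change of -0.58 ± 0.46. Serpinh1, the collagen-specific chaperone HSP47, had 117, 10.2 and 126 in cKO against 226, 8.68 and 16.6 in control. It was high in the same 3 libraries as type I collagen, and its log2 fold change was 0.71 ± 1.17, or -0.19 without control replicate 2.

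Outside the cell, Adamts14, a protease that removes the amino-terminal propeptide, had 6.43, 12.3 and 17.6 scaled CPM in the cKO libraries against 15.5, 3.83 and 4.00 in the control libraries. Pcolce2, an enhancer of carboxy-terminal cleavage, had 36.9, 9.39 and 20.8 in cKO against 38.3, 24.5 and 113 in control. Their log2 fold changes were 0.74 ± 0.68 and -1.24 ± 0.63, and the groups overlapped for both. Lox, the lysyl oxidase that crosslinks fibrils, had 139, 22.6 and 169.5 in cKO against 271, 2.50 and 7.61 in control. It was highest in control 1, and control 2 and control 3 were its lowest, with a log2 fold change of 2.03 ± 1.36. In edgeR and DESeq2 it was 0.24 and 0.19, and it was 0.77 without control replicate 2 and 3.91 without control replicate 1. Itga11, an integrin chain that binds type I collagen, had 9.07, 20.1 and 8.21 in cKO against 8.48, 6.03 and 3.78 in control, overlapping by control 1 alone, with a log2 fold change of 0.87 ± 0.61. Mmp14, a membrane-bound collagenase, had 70.2, 27.2 and 60.7 in cKO against 92.6, 7.14 and 20.7 in control, with a log2 fold change of 0.97 ± 0.77. None of these genes passed the adjusted limma threshold, and edgeR called 0 of the 52 genes of the list. DESeq2 called 0 of 51 and gave no p for Serpinh1.

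**Figure D5:**
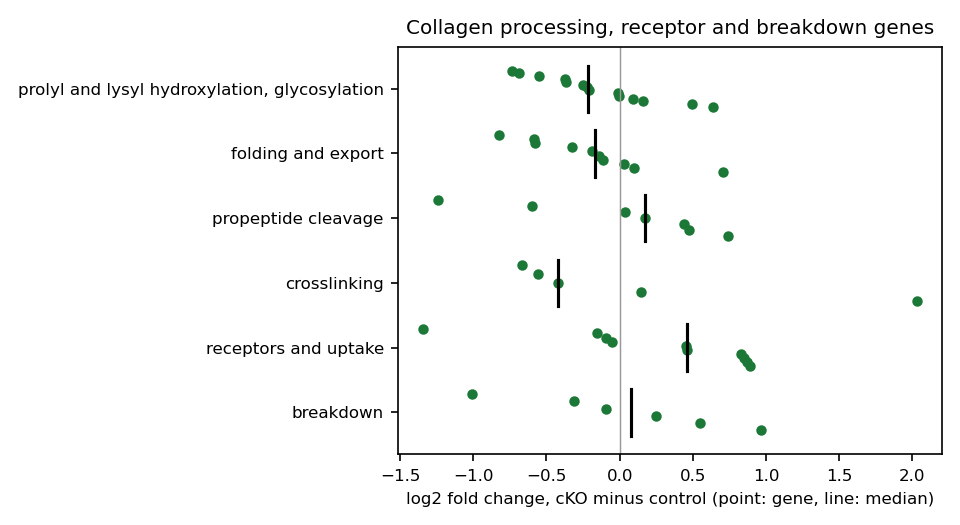
Log2 fold change (cKO minus control) of the 52 tested genes of collagen processing, binding and breakdown, by role (points are genes, vertical lines are medians). Role medians lie between -0.42 for crosslinking and 0.46 for receptors and uptake, and Lox at 2.03 in limma (0.24 in edgeR) is the highest gene.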

How the data were processed

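The labels' protocols name the Ovation SoLo kit for library preparation. Per the submitters' processing notes, the tools were Trimmomatic, HISAT2, featureCounts, and edgeR with the mm10 build, and no versions are named. Strand setting, annotation and handling of multiply matching reads were not found in the sources used here, which matters for chains whose exons overlap another gene. Besides the overlaps given above, Col3a1 shares 141 exon bases with Gm47302 on the same strand. On the opposite strand, Col4a3 shares 563 with C430014B12Rik and Col9a3 shares 234 with Tcfl5. Further overlaps were smaller than these. The authors deposited 1 normalized signal per gene and library, handled as depth-scaled read counts (CPM) with a further factor per library. Each value divided by its library's smallest step gave a whole number of reads (100% within 0.001), and these reads were recovered.

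The main test was limma 3.58.1 (R 4.3.3), which used a trended prior on log2(value + 1), for the 14796 genes reaching 1 in 3 or more libraries. P-values were Benjamini-Hochberg adjusted over all of these and called under 0.05. Fold changes understate low genes. The test had been planned for plain CPM and suits both. Alternatives were a pseudocount of 0.1, a filter at 5 or none, scaling by median-of-ratios factors, omission of each library, a replicate block, and count tests of the recovered reads by DESeq2 1.42.0 and edgeR 4.0.16. Omission of both libraries numbered 2 was added with the data already seen. The fit was tested on simulated data.

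The members, lists and rules were chosen with earlier results of these data known. Named were the 4 chains of each class with the highest mean, the 4 tested chains per direction with the smallest unadjusted p, partner chains, up to 4 processing genes per direction by unadjusted p, and Serpinh1. Other chains are given by range or fold change. Genome positions are from GENCODE M21 (GRCm38), and promoters from RefSeq. Nothing in the labels says that each library is a separate animal, and p-values then measure only how far these samples spread, possibly for technical reasons.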

Additional observations from a re-analysis of the deposited data

How the results depend on the processing

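No collagen chain and no processing gene that was tested passed the adjusted threshold in any setting; DESeq2 gave no p for Col1a1, Col1a2, Col5a2 and Serpinh1. The number of calls over all genes was 0 in each except DESeq2 (1). The transmembrane median moved to -0.13 with the filter at 5, which leaves fewer chains. Of 32 named genes tested, 16 kept their sign throughout, 13 changed it when 1 library was left out and 9 in another setting. Leaving out 1 library gave ranges of -1.54 to 2.04 for Col1a1, -1.35 to 1.93 for Col1a2, -1.94 to 1.99 for Col3a1, -0.037 to 0.83 for Col5a1, -1.08 to 2.98 for Col5a2, -0.021 to 1.24 for Col18a1, -1.81 to 0.033 for Col15a1, -0.058 to 1.03 for Col25a1, -0.86 to 2.16 for Col12a1, -0.15 to 0.65 for Col6a2, -0.11 to 1.55 for Col6a3, -1.98 to 0.29 for Col8a1 and -0.19 to 2.08 for Serpinh1. Without both libraries numbered 2 the log2 fold changes were 1.37 for Col1a1, 1.26 for Col1a2, 1.22 for Col3a1, -0.17 for Col13a1, 0.14 for Col4a4, 0.70 for Col8a1 and 0.10 for P3h4. Col5a2 was -0.16 with a pseudocount of 0.1, -0.0043 in edgeR and -0.051 in DESeq2, and Serpinh1 was -0.027 in DESeq2. The cause of these changes was not tested. In edgeR Col27a1 was -0.64, in DESeq2 Mmp14 was 0.37, and with a pseudocount of 0.1 Col14a1, Col17a1 and Col4a4 were -2.43, 2.66 and -2.07. Leaving out 1 library gave medians of -0.83 to 0.82 for basement membrane chains, 0.20 to 0.74 for transmembrane chains and -0.75 to 0.13 for the others. Over all chains the median was 0.01 in edgeR and -0.01 in DESeq2.

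Replicate numbers were not taken as pairs in the main test. The deviations of same-numbered libraries correlated at 0.491, 0.301 and 0.034, and those of differently numbered libraries at -0.403 to 0.028. Whether the numbers mark pairs was not tested. With the replicate block, 0 collagens were called, and 307 genes in all had an unadjusted p under 0.05, against 126 without it. That count ran from 41 without control replicate 3 to 989 without cKO replicate 1. With 3 libraries a group, SE of 0.40 or more leave moderate changes of a chain undetectable.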

Other observations

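A list of 12 collagen-domain and collagen-associated genes outside the naming rule was made after the collagen values were seen, and 9 of them were tested. Of these 9, 4 were highest in control 1, 2 in control 3 and 1 each in cKO 2, cKO 3 and control 2. Colec12, a scavenger receptor with a collagen-like stalk, had 68.5, 0.202 and 31.1 scaled CPM in the cKO libraries against 77.8, 24.1 and 14.4 in the control libraries. Emilin1, an elastic fibre glycoprotein, had 34.0, 0.202 and 30.8 in cKO against 56.5, 3.31 and 8.45 in control. Cthrc1, a secreted protein of repairing tissue, had 18.0, 2.32 and 19.2 in cKO against 34.7, 3.60 and 7.83 in control. These were highest in control 1 and lowest in cKO 2, as Col1a1 was. Eda, a ligand of the tumour necrosis factor family, had 1.58, 15.1 and 2.40 in cKO against 1.01, 1.77 and 0 in control. Emilin2 was highest in control 3, with 35.2, 41.2 and 14.9 in cKO against 32.2, 31.4 and 54.2 in control.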
